A study of Saccharomyces cerevisiae with 20 samples.

Results

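The transcripts described here are those of 41 genes for the proteins of the yeast cell wall and for the enzymes that make and remodel it. They were taken from the 5751 genes that the array annotation names, by gene symbol, as a fixed list of mannoproteins, PIR proteins, glucanases, transglycosylases and synthases. The list held 8 DAN/TIR mannoproteins, 9 other proteins with a GPI anchor, 4 PIR proteins, the secreted glycoprotein Ygp1, 2 chitin-glucan transglycosylases, 5 beta-1,3-glucanosyltransferases, 2 beta-1,3-glucan synthases, 6 glucanases, 3 chitin synthases and Kre6 of beta-1,6-glucan synthesis. Of these, 40 had a probe set annotated to no other gene, and all 40 passed the filter on low signals. The exception was DAN3, now PAU24, which was reported only by probe sets shared with other seripauperin genes. The probe set of DAN2 is of a family type that related transcripts may also reach.

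The cultures were duplicate batch fermentations of the prototrophic laboratory strain CEN.PK113-7D (MATa MAL2-8C SUC2) on synthetic medium with 20 g/L glucose, held at 30°C and pH 5.0. Anaerobic cultures were sparged with nitrogen, and the growth factors that yeast cannot make without oxygen were added to their medium from an ethanol stock, as Tween 80 at 420 mg/L and ergosterol at 10 mg/L. They were sampled in exponential phase, at the end of exponential phase, in early stationary phase (SP) and in late SP. Aerobic cultures were sparged with air and sampled in exponential phase, late exponential phase, at the diauxic shift, in the post-diauxic phase, in early SP and in late SP. With 2 cultures at each of these 10 points, 20 arrays were available. Oxygen and the added growth factors differ between the same cultures and cannot be told apart in any comparison below. The paper also reports slower growth on glucose in the anaerobic cultures. Aerobic SP began when ethanol was used up, after a slow phase of growth on it, and anaerobic SP began when glucose was used up. In comparisons of SP between regimes, and in the interaction, this history cannot be told apart from oxygen either.

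The yeast wall is a network of beta-1,3-glucan, with beta-1,6-glucan and a little chitin attached to it, covered by an outer layer of mannoproteins. Most mannoproteins are tied to beta-1,6-glucan through the remnant of a GPI anchor, whereas PIR proteins are bound directly to beta-1,3-glucan. The DAN and TIR genes encode mannoproteins of anaerobic cells. They are repressed in the presence of oxygen and heme, and the sterol-responsive activator Upc2 switches them on. Glucan is made at the plasma membrane by synthases with Fks1 or Gsc2 as catalytic subunit, is lengthened by the Gas proteins and is joined to chitin by Crh1 and Utr2, while glucanases loosen the network during growth and cell separation.

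Values are linear array signals, scaled by the authors to a common average, so that each is a level relative to the total signal of its array. In whole cultures, fewer cells with a transcript and less of it per cell cannot be told apart. A difference was called at a limma adjusted p below 0.05 over all 6067 probe sets tested and a fold of at least 2, that is, a log2 change of at least 1 in size. Changes are given as anaerobic over aerobic, or as the later over the earlier stage, with the standard error (SE) of the fit. Signals below 12 count as 12 in the tests and are printed here as deposited.

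The labelled regimes were set apart by several of the oxygen-dependent genes checked. CYC1 (cytochrome c) had signals of 52.7 to 208 on the anaerobic arrays and 1311 to 5921 on the aerobic ones. UPC2 had 106 to 285 against 14.1 to 27.2. ANB1 and AUS1 were higher, and ROX1 lower, on every anaerobic array than on any aerobic one. CYB2 and COX5B overlapped when stages were pooled. The hypoxic gene CYC7 read 10.5 and 13.3 in anaerobic and 86.5 and 15.8 in aerobic exponential cultures, the reverse of its label. In SP it was higher in anaerobic cultures. Some arrays stood apart. Aerobic culture 1 in exponential phase correlated best with culture 2 in late exponential phase (0.988), and culture 2 in exponential phase with culture 1 in late exponential phase (0.986), whereas the labelled replicates correlated at 0.963 and 0.975. The labels were kept. From the diauxic shift on, DAN1 and TIR1 to TIR4 were higher in aerobic culture 2 than in culture 1, and so was ANB1, a hypoxic gene, with 209 in culture 2 and 104 in culture 1 in late SP. In late SP, the ratio of 3' to 5' signal for ACT1, a measure of RNA integrity, was 1.64 and 1.62 in anaerobic cultures and 2.68 and 2.1 in aerobic cultures, and 2702 and 2721 features lay below 12 in anaerobic cultures, against 1823 and 1847 in aerobic cultures. The part of these differences in the results was not tested.

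Across the 10 conditions, the wall genes fell into a few patterns, which the map of relative levels shows. Of the 7 DAN/TIR mannoprotein genes tested, all were higher in anaerobic cultures at the first 3 like stages and 6 in late SP, where TIR2 was not called. SPI1, YGP1 and SED1 rose and UTR2, GAS1, FKS1, SCW10 and EXG1 fell when glucose had been used up, under both regimes. TIP1 and GSC2 were level through the anaerobic batch and rose at the aerobic diauxic shift. Of the 40 members tested, 5 (CCW12, CCW14, GAS2, GAS4 and SCW4) were called in none of the 14 comparisons. GAS2 and GAS4 lay about the floor of 12, with highest signals of 20.4 and 37.1, where a change is hard to call. How many of all probe sets were called in none was not counted, so this is not a trait of wall genes.

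**Figure D1:**
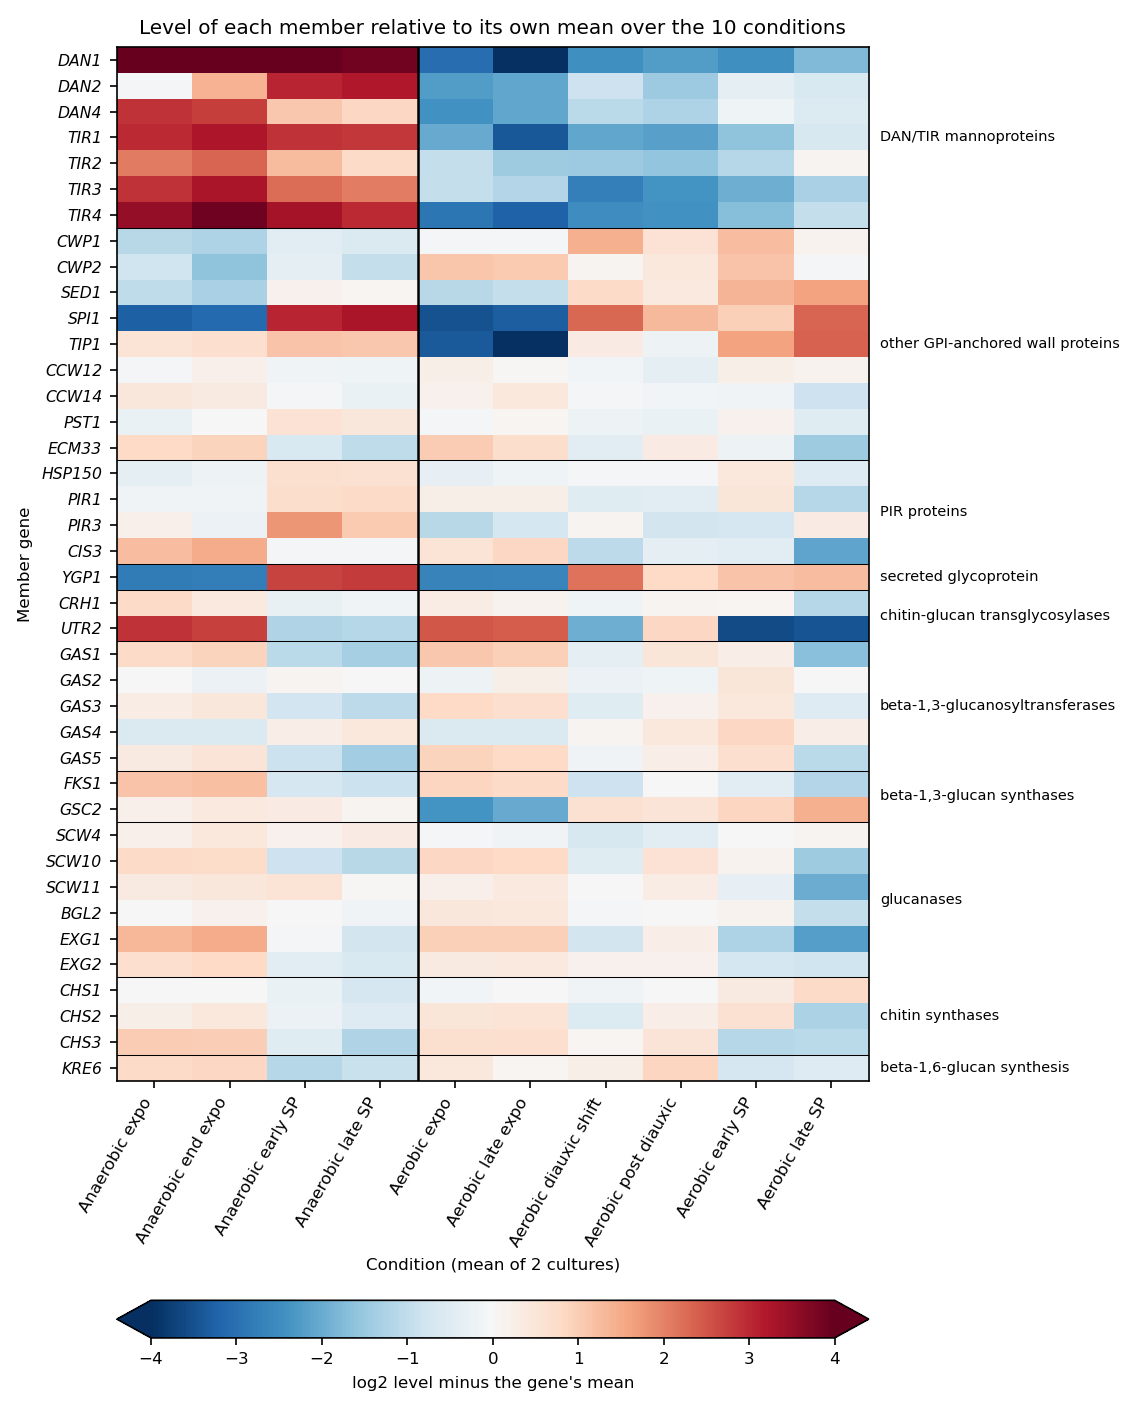
Mean log2 signal of each of the 40 wall genes tested (rows, grouped by role) in the 10 conditions (columns, anaerobic left of the black line), minus the gene's own mean over the conditions. Red stands for a level above and blue for a level below that mean, and the scale ends at 4 in either direction. DAN1, TIR1, TIR3 and TIR4 are red in all anaerobic columns, and SPI1 and YGP1 turn from blue to red after exponential growth under both regimes.

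The first question was how the wall genes differed between anaerobic and aerobic cultures at like stages. In exponential phase, 10 of 40 members were higher in anaerobic cultures and 2 were lower, where 2.88% of all probe sets were higher and 5.08% lower. At the end of exponential phase, 9 were higher and 2 lower than in aerobic late exponential phase (3% and 6.05% of all probe sets). In early SP, 12 were higher and 6 lower (9.02% and 16.1%), and against the aerobic diauxic shift, the other stage at which glucose had just run out, 9 members of the anaerobic early SP cultures were higher and 2 lower (6.56% and 15.9%). In late SP, 14 were higher and 4 lower (12.8% and 18.2%). Without aerobic culture 1 in exponential and late exponential phase, 8 members were called in exponential phase (7 higher, 1 lower) and 12 at its end (10 and 2). Without culture 2 there, 12 (10 and 2) and 10 (9 and 1) were called. The DAN/TIR genes made up 7 of the members that were higher in each of the first 4 of these comparisons, and 6 of those in late SP. Outside this group, the largest differences during growth on glucose were those of TIP1, GSC2 and CWP2, and those in late SP were of UTR2, CIS3 and SCW11.

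DAN1, the mannoprotein whose induction without oxygen gave the family its name (delayed anaerobic), read 7989.6 and 7364 in exponential phase, 8204 and 9192 at its end, 5156 and 6226 in early SP and 5259 and 5140.1 in late SP in anaerobic cultures 1 and 2. In aerobic cultures it read 4.7 and 159.6 in exponential phase, 11.2 and 12.1 in late exponential phase, 7.1 and 359 at the diauxic shift, 2.6 and 494 post-diauxic, 0.6 and 359 in early SP and 1.4 and 930.1 in late SP. Aerobic culture 1 was below 12 at all 6 points, while culture 2 was so at none, and the highest aerobic signal was still far below the lowest anaerobic one. The log2 changes were 7.45 in exponential phase, 9.49 at its end, 6.43 in early SP and 5.62 in late SP, each with an SE of 2.11 (adjusted p = 0.0293, 0.00554, 0.0211 and 0.0351). Except at the end of exponential phase, the call ended without aerobic culture 1 or either anaerobic culture of the pair compared. With aerobic culture 1 left out the log2 change was 5.59 in exponential phase (adjusted p = 0.257), 3.98 in early SP against aerobic early SP or the diauxic shift (adjusted p = 0.23 and 0.229) and 2.48 in late SP (adjusted p = 0.446), and without an anaerobic culture it was 7.39 and 7.51 in exponential phase (adjusted p = 0.131 and 0.138) and 5.60 and 5.64 in late SP (adjusted p = 0.109). With a floor of 1 in place of 12, DAN1 was called at no stage (adjusted p = 0.0558 to 0.141). With culture number as a block, which takes the mean difference between the cultures of a regime out of the error, the adjusted p was 0.000216 in exponential phase and 0.000466 in late SP. That difference is the spread between cultures by which a difference between regimes has to be judged. The block values count stages of the same 2 cultures as replicates and do not make up for the lost calls.

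TIR1, a serine-rich mannoprotein that is also induced by cold, had the same split. Its anaerobic signals were 11256 and 9362 in exponential phase, 11780.3 and 12949 at its end, 8905 and 10516 in early SP and 9328 and 9079 in late SP. Its aerobic signals were 121 and 863 in exponential phase, 119 and 130.4 in late exponential phase, 102 and 951 at the diauxic shift, 62.1 and 1372 post-diauxic, 192 and 946 in early SP and 294 and 2369 in late SP. Aerobic culture 2 exceeded culture 1 at each point and by far at all but late exponential phase, and no aerobic array reached an anaerobic one. The log2 change was 4.99 in exponential phase, 6.63 at its end, 4.51 in early SP and 3.46 in late SP (SE 1.35, adjusted p = 0.0226, 0.00285, 0.0129 and 0.0413). Left to aerobic culture 2 alone, it was 3.57 in exponential phase (adjusted p = 0.238), 3.35 in early SP (adjusted p = 0.131) and 1.96 in late SP (adjusted p = 0.382). The exponential and late SP calls also ended without anaerobic culture 1 (4.86 and 3.44, adjusted p = 0.118 and 0.122) or culture 2 (5.13 and 3.48, adjusted p = 0.106 and 0.12), and the early SP call without anaerobic culture 2 (4.39, adjusted p = 0.0627). With culture number as a block, the adjusted p was 0.00019 in exponential phase and 0.000755 in late SP, with the same limit as for DAN1.

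TIR4 and TIR3, of the same family, are among the genes that yeast requires for growth without oxygen. TIR4 read 7994 and 7209.6 in exponential phase, 9651 and 10089.6 at its end, 6298 and 7265 in early SP and 5819 and 4799 in late SP in anaerobic cultures, against 73.6 and 108 in exponential phase, 56.5 and 89.8 in late exponential phase, 93.8 and 149 at the diauxic shift, 78.6 and 198 post-diauxic, 186 and 224 in early SP and 229 and 526 in late SP in aerobic cultures. TIR3 read 8461 and 6834 in exponential phase, 9813 and 9970.2 at its end, 4449 and 5093 in early SP and 4643 and 3948 in late SP in anaerobic cultures, against 523 and 541 in exponential phase, 475 and 443 in late exponential phase, 107 and 226 at the diauxic shift, 132 and 291 post-diauxic, 228 and 304 in early SP and 249 and 701 in late SP in aerobic cultures. Both were higher in anaerobic cultures at every stage with no overlap. For TIR4 the log2 change was 6.41 (adjusted p = 3.43e-08) in exponential phase and 3.93 (adjusted p = 2.18e-06) in late SP, with an SE of 0.42. For TIR3 it was 3.84 (adjusted p = 1.6e-05) and 3.36 (adjusted p = 1.51e-05), with an SE of 0.43. Without aerobic culture 1 at any time point, which leaves single aerobic arrays that are taken to vary like the anaerobic ones, the late SP values were 3.33 for TIR4 and 2.61 for TIR3 (adjusted p = 0.000101 and 0.000254).

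TIR2 and DAN4 differed less between regimes in late SP than in exponential phase. TIR2, which lies next to TIR4 in the genome, read 2583 and 2033 in exponential phase, 2658 and 2769 at its end, 1237 and 1362 in early SP and 1032 and 831 in late SP in anaerobic cultures, against 242 and 327 in exponential phase, 182 and 231 in late exponential phase, 175 and 232 at the diauxic shift, 122 and 274 post-diauxic, 164 and 368 in early SP and 407 and 855 in late SP in aerobic cultures. The late SP signals overlapped, and the log2 change, 3.03 in exponential phase, was 0.65 (adjusted p = 0.2) in late SP (SE 0.41) and not called. The difference between these stages passed the test as an interaction for TIR2 (-2.37, adjusted p = 0.00485) and for DAN4 (-3.96, adjusted p = 4.08e-07). DAN4, the neighbour of DAN1, read 2128 and 1731 in exponential phase, 1572 and 1939.5 at its end, 522 and 558 in early SP and 479 and 435 in late SP in anaerobic cultures, against 59.1 and 39.5 in exponential phase, 51.5 and 73.6 in late exponential phase, 135 and 111 at the diauxic shift, 112 and 108 post-diauxic, 225 and 235 in early SP and 206 and 156 in late SP in aerobic cultures. The 2 aerobic cultures did not differ here as they did for DAN1. Its log2 change was 5.31 (adjusted p = 9.63e-10) in exponential phase, 1.23 (adjusted p = 0.00047) in early SP and 1.35 (adjusted p = 0.000173) in late SP (SE 0.23).

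DAN2, now named PAU23 and a seripauperin by sequence, went the other way over time in anaerobic cultures. It read 411 and 349 in exponential phase, 978 and 1052 at its end, 3153 and 3379.7 in early SP and 3676 and 3595 in late SP in anaerobic cultures, against 109 and 62.9 in exponential phase, 75.2 and 114 in late exponential phase, 236 and 206 at the diauxic shift, 136 and 153 post-diauxic, 280.2 and 318 in early SP and 229 and 290.2 in late SP in aerobic cultures. Its log2 change was 2.20 (adjusted p = 1.28e-05) in exponential phase, 3.46 (adjusted p = 5.25e-08) at its end and 3.82 (adjusted p = 8.43e-09) in late SP (SE 0.24). Its probe set belongs to a family type that related seripauperin transcripts may also reach, so the value is uncertain as that of a single gene. The 2 probe sets that hold DAN3 match 7 and 3 genes, and were higher in anaerobic cultures by log2 changes of 2.38 and 2.44 in exponential phase and 1.78 and 2.44 in late SP. No value can be given for DAN3 alone.

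**Figure D2:**
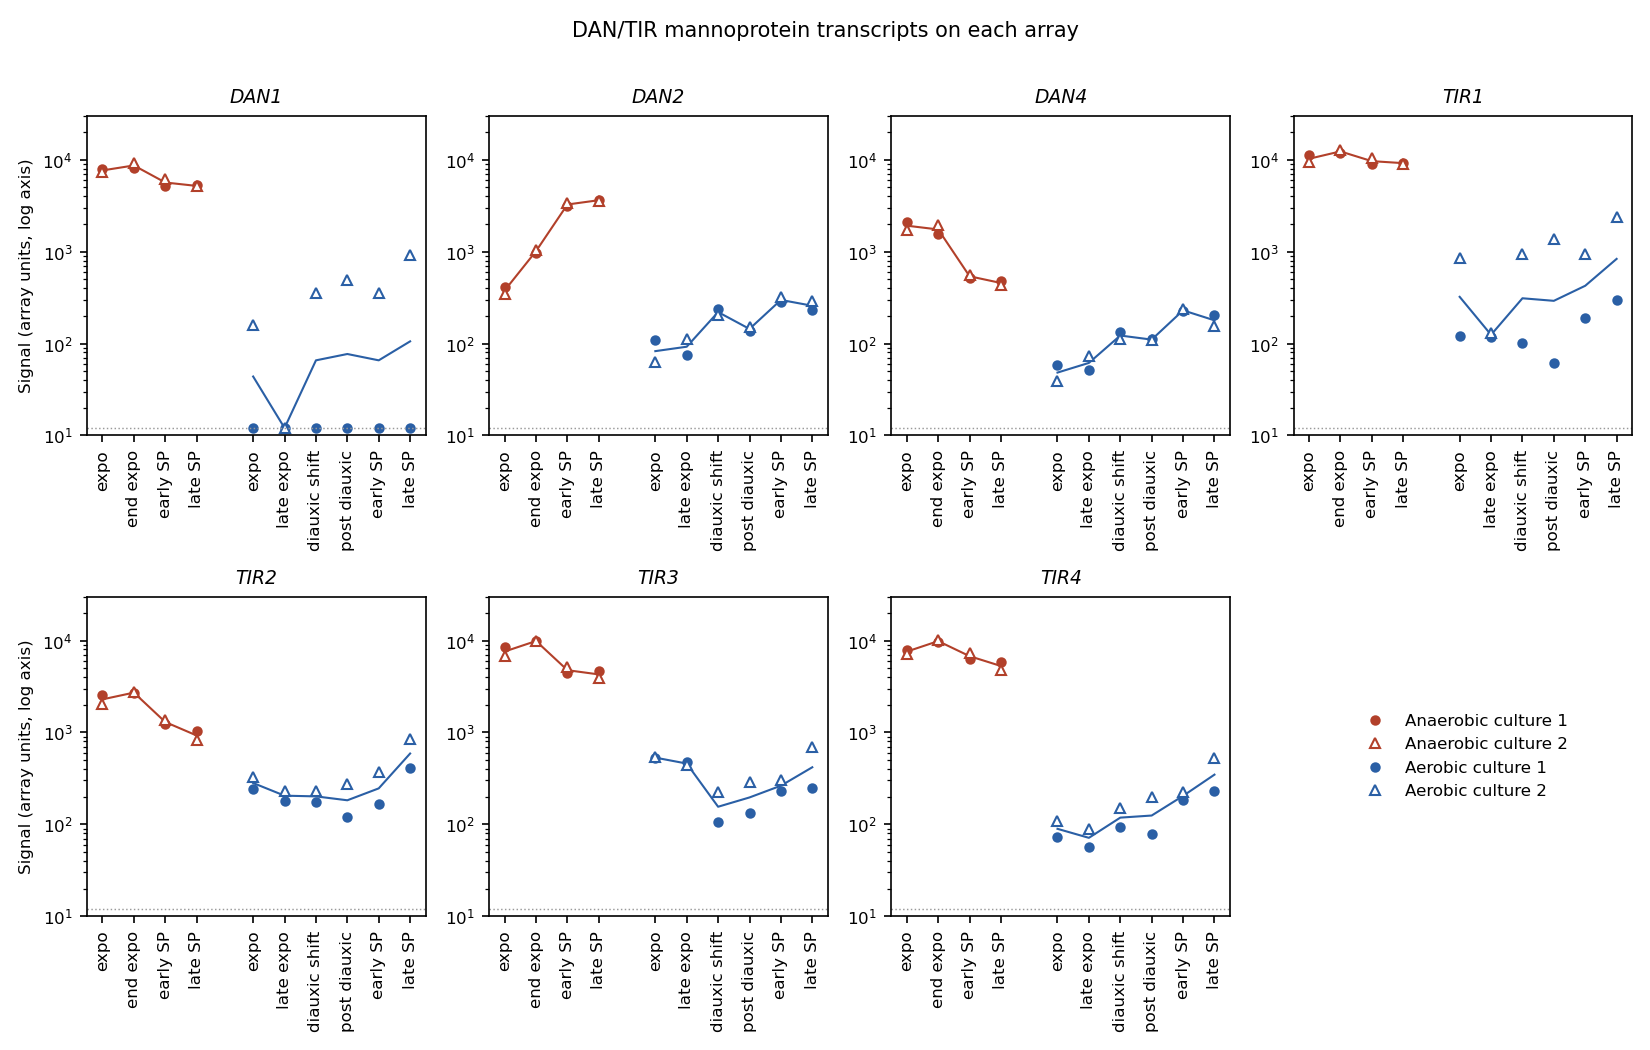
Signal of the 7 DAN/TIR mannoprotein genes with a probe set annotated to them alone on each array (log axis, array units), with anaerobic stages at the left and aerobic stages at the right of each panel. Filled circles are culture 1, open triangles culture 2, lines join their geometric means, and the dotted line marks the floor of 12, to which lower signals were raised. All anaerobic signals of DAN1, TIR1, TIR3 and TIR4 lie above all aerobic ones, and aerobic culture 2 lies above culture 1 for DAN1 and TIR1.

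Among the known regulators of the DAN/TIR genes, 8 of 9 listed were tested. In exponential phase 2 were higher and 1 lower in anaerobic cultures (2.88% and 5.08% of all probe sets). In late SP 2 were higher and 3 lower (12.8% and 18.2% of all probe sets). UPC2 itself was higher by a log2 change of 3.28 in exponential phase and 2.32 in late SP (SE 0.28, adjusted p = 7.06e-07 and 7.57e-06). The repressor gene ROX1 read 11.9 and 8.7 in anaerobic and 57.0 and 70.0 in aerobic exponential cultures, and 20.8 and 17.4 against 203 and 189 in late SP (log2 change -2.40 and -3.36, SE 0.22). Both anaerobic exponential signals lay below the floor of 12, so that -2.40 is a bound and the difference may be larger. SUT1, which encodes a factor for sterol uptake, was higher in anaerobic cultures in exponential phase (1.31, SE 0.16, adjusted p = 2.84e-05) and lower in late SP (-2.09, SE 0.16, adjusted p = 5.06e-08). The PAU genes, seripauperins related to the DAN and TIR genes, were listed with 24 genes, of which 10 were tested, DAN2 as PAU23 among them. All 10 were higher in anaerobic cultures in exponential phase, at its end, in early SP and in late SP, with median log2 changes of 2.95, 4.88, 3.58 and 3.17. At these stages 2.88%, 3%, 9.02% and 12.8% of all probe sets were higher. PAU15, PAU3 and PAU19 led in exponential phase (5.48, 5.17 and 5.02). Seripauperin transcripts are so alike that these probe sets cannot be taken as independent.

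CWP1 and CWP2, adjacent genes for mannoproteins of the growing wall, ran against the DAN/TIR group. CWP2 read 1622 and 1521 in exponential phase, 745 and 1060.4 at its end, 1920.3 and 2257 in early SP and 1435 and 1336 in late SP in anaerobic cultures, against 5928 and 5805 in exponential phase, 5172 and 6005 in late exponential phase, 2643 and 3169 at the diauxic shift, 3584 and 3679 post-diauxic, 5456 and 6539.9 in early SP and 2021 and 3331 in late SP in aerobic cultures. CWP1 read 160.4 and 136 in exponential phase, 140.0 and 126 at its end, 227 and 250.5 in early SP and 232 and 197 in late SP in anaerobic cultures, against 359 and 266 in exponential phase, 242 and 396 in late exponential phase, 917 and 799.5 at the diauxic shift, 397 and 564 post-diauxic, 687 and 799 in early SP and 344 and 360.5 in late SP in aerobic cultures. At each like stage, the anaerobic signals of both genes lay below the aerobic ones. CWP2 was lower in anaerobic cultures in exponential phase (log2 change -1.90, SE 0.23, adjusted p = 2.75e-05), at its end (-2.65) and in early SP (-1.52). CWP1 was lower at the same stages, with log2 changes of -1.07, -1.22 and -1.63 (SE 0.24), and of -1.84 in early SP against the aerobic diauxic shift. In late SP the changes of CWP2 and CWP1, -0.91 (adjusted p = 0.00356) and -0.72 (adjusted p = 0.0189), missed the fold threshold. The exponential call for CWP1 ended without anaerobic culture 2 (-0.95, adjusted p = 0.0796) or aerobic culture 1 (-0.85, adjusted p = 0.0847), and the one at the end of exponential phase without aerobic culture 2 (-0.86).

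**Figure D3:**
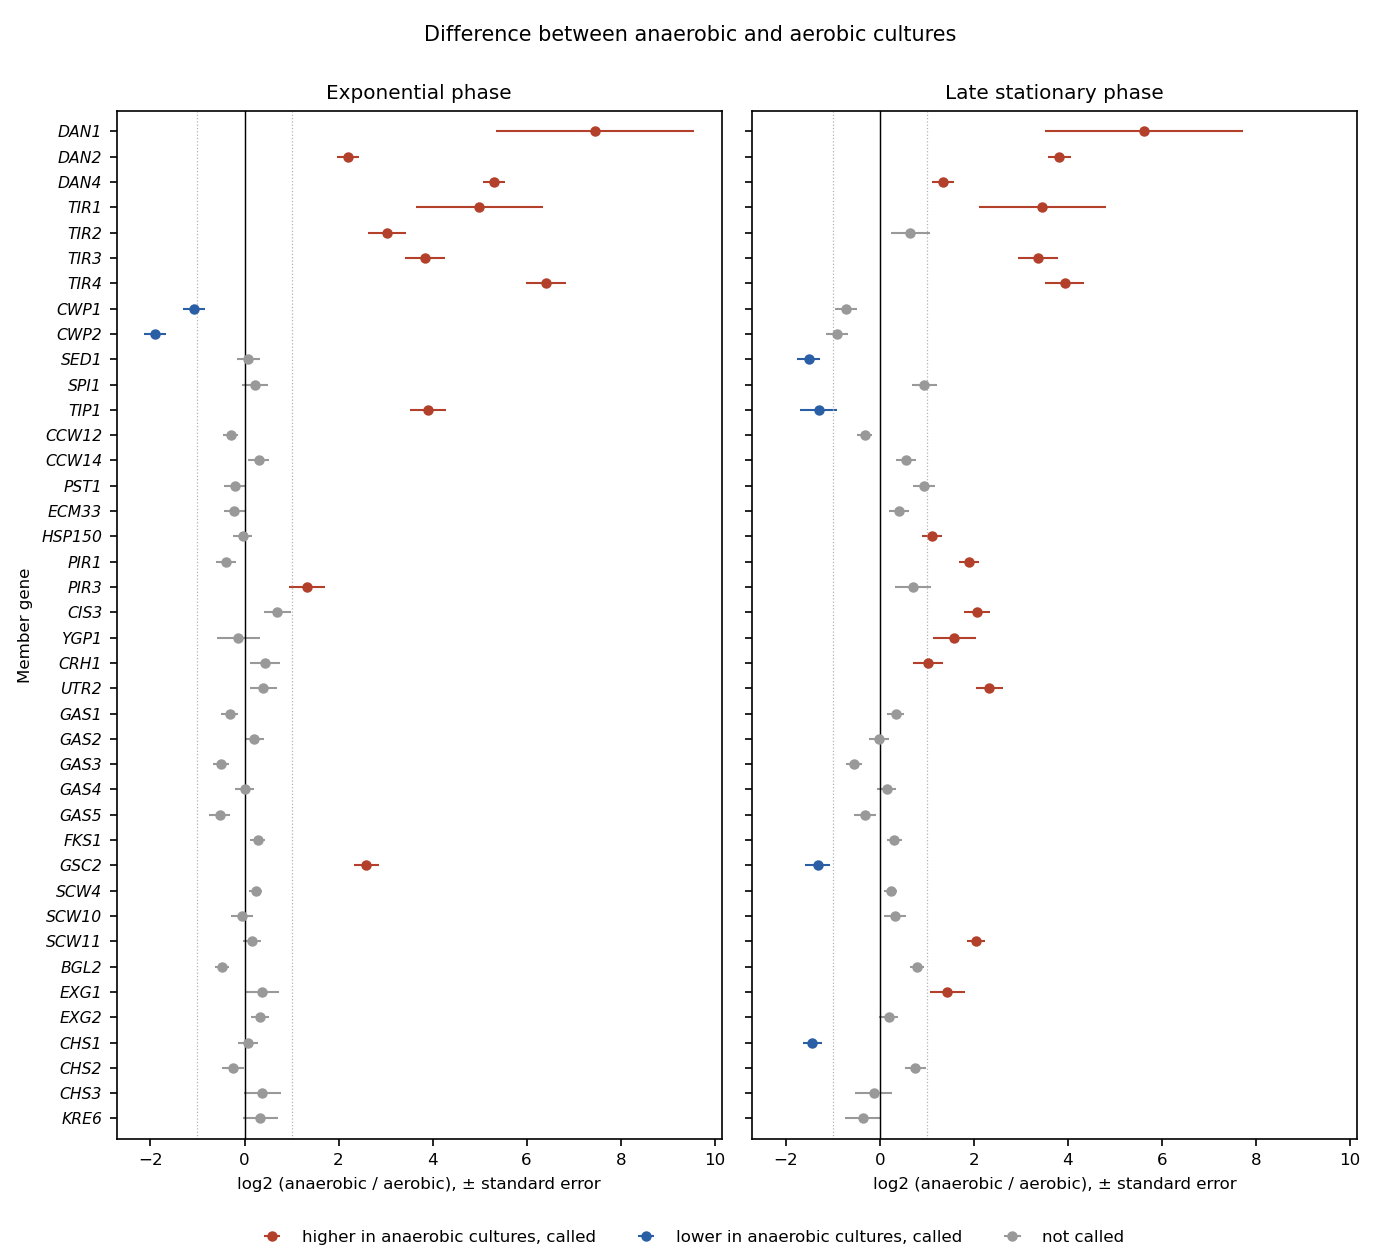
Difference between anaerobic and aerobic cultures for each of the 40 wall genes tested, as log2 of anaerobic over aerobic with the standard error of the fit (2 cultures per condition), in exponential phase (left) and in late SP (right). Red points were called higher and blue points lower in anaerobic cultures, grey points were not called, and dotted lines mark a fold of 2. The DAN/TIR genes are at the top, and TIP1 and GSC2 lie right of 0 in exponential phase and left of it in late SP.

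TIP1, a GPI-anchored mannoprotein first known from its induction by temperature shock, changed sides during the batch. In anaerobic cultures it read 4944 and 4752 in exponential phase, 5312 and 5308 at its end, 6710.2 and 8043 in early SP and 7094 and 6652 in late SP. In aerobic cultures it read 167 and 633 in exponential phase, 188 and 172 in late exponential phase, 3934 and 4253 at the diauxic shift, 2591 and 3099 post-diauxic, 9547 and 10718 in early SP and 18829.5 and 15194 in late SP. The anaerobic level was high throughout, while the aerobic level climbed at the diauxic shift and again in SP and ended above it. TIP1 was higher in anaerobic cultures in exponential phase (log2 change 3.90, SE 0.39, adjusted p = 4.44e-06) and at its end (4.88), and lower in late SP (log2 change -1.30, SE 0.39, adjusted p = 0.0112). The late SP call did not hold without anaerobic culture 2 (-1.25, adjusted p = 0.0567), without aerobic culture 1 (-1.15, adjusted p = 0.0948) or under quantile normalization (-0.71, adjusted p = 0.142). The change over time differed between the regimes by -5.20 (adjusted p = 5.19e-06), tested as an interaction.

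GSC2, the glucan synthase subunit used when glucose is scarce or the wall is under stress, followed a like course. It read 734 and 607 in exponential phase, 795 and 714 at its end, 753 and 719 in early SP and 688 and 568 in late SP in anaerobic cultures, against 163 and 75.7 in exponential phase, 136 and 153 in late exponential phase, 835 and 946 at the diauxic shift, 809 and 854 post-diauxic, 1118 and 971 in early SP and 1569.6 and 1558 in late SP in aerobic cultures. FKS1, the main subunit of growing cells, read 2480.4 and 2098 in exponential phase, 2415 and 2339 at its end, 649.9 and 639.9 in early SP and 602 and 538 in late SP in anaerobic cultures, against 1770.3 and 2004 in exponential phase, 1618 and 1918 in late exponential phase, 586 and 581 at the diauxic shift, 1045 and 1036 post-diauxic, 775 and 781 in early SP and 412 and 509.6 in late SP in aerobic cultures. GSC2 was level in anaerobic cultures and low in aerobic cultures only during growth on glucose. It was higher in anaerobic cultures in exponential phase (log2 change 2.59, SE 0.26, adjusted p = 4.44e-06), lower in late SP (log2 change -1.32, SE 0.26, adjusted p = 0.000597), and its change over time differed between regimes by -3.91 (adjusted p = 1.54e-06). The 6 other probe sets of GSC2 had late SP log2 changes of -0.78 to -1.18, and 3 of them were called. At the probe set used, FKS1 was not called in any comparison of anaerobic with aerobic cultures. Its log2 changes were 0.28 in exponential phase and 0.31 in late SP (SE 0.16). FKS1 has 8 probe sets, and the values of the others are not given here.

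SED1, a major wall protein of stationary cells, rose less without oxygen (interaction -1.60, adjusted p = 0.00179). It read 827 and 736 in exponential phase, 718 and 588 at its end, 2097 and 1528 in early SP and 1838 and 1535 in late SP in anaerobic cultures, against 646 and 838 in exponential phase, 789 and 826 in late exponential phase, 2952 and 2464 at the diauxic shift, 1633 and 2632 post-diauxic, 3769 and 4343 in early SP and 5423 and 4247 in late SP in aerobic cultures. The regimes overlapped in exponential phase, and from early SP on the anaerobic signals were the lower ones (log2 change -1.18, SE 0.24, adjusted p = 0.00107 in early SP, log2 change -1.51, SE 0.24, adjusted p = 0.000105 in late SP). The early SP call missed the fold threshold without anaerobic culture 2 (-0.95). SPI1, a GPI-anchored protein linked to resistance against weak acids, read 116 and 91.4 in exponential phase, 106 and 127 at its end, 7991 and 8668 in early SP and 9635 and 9561 in late SP in anaerobic cultures, against 124 and 62.8 in exponential phase, 83.1 and 122 in late exponential phase, 5350.0 and 4507 at the diauxic shift, 2423 and 2445 post-diauxic, 1886 and 1932 in early SP and 5793 and 4255 in late SP in aerobic cultures. It was called higher in anaerobic cultures in early SP (log2 change 2.12, SE 0.27, adjusted p = 1.77e-05), whereas its late SP change of 0.95 (adjusted p = 0.00866) missed the fold threshold. CCW12 and CCW14, structural mannoproteins, and ECM33, needed for the order of the outer layer, were not called between regimes at any stage, with log2 changes between -0.40 and 0.56. CCW12 read 14672 and 12264 in exponential phase, 15657 and 16659.7 at its end, 11507 and 13774 in early SP and 12643 and 11905 in late SP in anaerobic cultures, against 15368 and 17409.6 in exponential phase, 13077 and 15918 in late exponential phase, 12553 and 12924 at the diauxic shift, 11472 and 10038 post-diauxic, 17013 and 15927 in early SP and 14985 and 15703 in late SP in aerobic cultures. CCW12 was level across all 10 conditions. PST1, which responds to wall damage, had a log2 change of 0.94 (adjusted p = 0.00292) in late SP, under a fold of 2.

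The 4 PIR genes stand as 2 adjacent pairs, PIR1 with PIR3 and HSP150 with CIS3. In late SP, 3 of the 4 were higher in anaerobic cultures, where 12.8% of all probe sets were higher. PIR1 read 1902 and 1706 in exponential phase, 1670.2 and 1946 at its end, 3177 and 3356 in early SP and 3346 and 3387 in late SP in anaerobic cultures, against 2364 and 2367 in exponential phase, 2086 and 2652 in late exponential phase, 1525 and 1314 at the diauxic shift, 1725 and 1229 post-diauxic, 2534 and 3062 in early SP and 756 and 1074 in late SP in aerobic cultures. CIS3 read 2201 and 2724 in exponential phase, 2953 and 2892 at its end, 1017 and 921 in early SP and 1106 and 929 in late SP in anaerobic cultures, against 1321 and 1714 in exponential phase, 1589 and 2098 in late exponential phase, 534 and 463 at the diauxic shift, 712 and 872 post-diauxic, 648 and 899 in early SP and 169 and 345 in late SP in aerobic cultures. HSP150 read 383 and 425 in exponential phase, 445 and 462 at its end, 872 and 771 in early SP and 795 and 790.4 in late SP in anaerobic cultures, against 392 and 441 in exponential phase, 359 and 591 in late exponential phase, 516 and 484 at the diauxic shift, 558 and 456 post-diauxic, 603 and 809 in early SP and 368 and 368 in late SP in aerobic cultures. In late SP all anaerobic signals of these 3 genes lay above the aerobic ones, which adds nothing to the calls by which they were picked. The signals of PIR1 and CIS3 in aerobic late SP were the lowest of the aerobic batch. The late SP log2 changes were 1.90 (adjusted p = 3.09e-06) for PIR1, 2.07 (adjusted p = 2.59e-05) for CIS3 and 1.11 (adjusted p = 0.000534) for HSP150, with SEs of 0.21, 0.28 and 0.21. Under quantile normalization HSP150 had 0.98, just under the fold threshold. PIR3, of low signal, read 51.7 and 73 in exponential phase, 38.4 and 52 at its end, 182 and 180.1 in early SP and 119 and 98.8 in late SP in anaerobic cultures, against 22 and 27.3 in exponential phase, 28.8 and 36.8 in late exponential phase, 60.2 and 53.5 at the diauxic shift, 23.8 and 41.6 post-diauxic, 25.2 and 44 in early SP and 41.9 and 105 in late SP in aerobic cultures. It was higher in anaerobic cultures in early SP (log2 change 2.44, SE 0.38, adjusted p = 0.00011) and in exponential phase (1.33, adjusted p = 0.0317), but the exponential call ended without anaerobic culture 1 (1.57, adjusted p = 0.0593), without anaerobic culture 2 (1.08, adjusted p = 0.258) or without aerobic culture 1 (1.17, adjusted p = 0.19), and under quantile normalization (1.24, adjusted p = 0.0503).

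Among the secreted and remodelling proteins, 5 more were higher in anaerobic late SP, where 12.8% of all probe sets were higher. YGP1, a secreted glycoprotein made when nutrients run short, read 98.9 and 135 in exponential phase, 109 and 125 at its end, 4838 and 5639.8 in early SP and 5460.1 and 5733 in late SP in anaerobic cultures, against 221 and 72.2 in exponential phase, 72.3 and 229 in late exponential phase, 3870.5 and 3302 at the diauxic shift, 1343 and 1439.6 post-diauxic, 1619 and 1921 in early SP and 1807 and 1918 in late SP in aerobic cultures. UTR2, which links chitin to glucan, read 1682 and 1665 in exponential phase, 1488 and 1527 at its end, 90.9 and 107 in early SP and 106 and 103 in late SP in anaerobic cultures, against 977 and 1643 in exponential phase, 1381 and 1057 in late exponential phase, 51.3 and 65.7 at the diauxic shift, 395 and 409 post-diauxic, 20.4 and 17.6 in early SP and 14.5 and 29.6 in late SP in aerobic cultures. SCW11, a glucanase-like protein of daughter cell separation, read 223 and 242 in exponential phase, 268 and 227 at its end, 284 and 252 in early SP and 189.8 and 186 in late SP in anaerobic cultures, against 239 and 182 in exponential phase, 218 and 258 in late exponential phase, 178 and 192 at the diauxic shift, 243 and 203 post-diauxic, 162 and 128 in early SP and 42.6 and 48.4 in late SP in aerobic cultures. In late SP the anaerobic signals of all of these lay above the aerobic ones. As these genes were named for their late SP call, this adds no support to it. The share of all probe sets separated in this way was not counted. The log2 changes were 1.59 (adjusted p = 0.00931) for YGP1 (SE 0.46), 2.33 (adjusted p = 1.02e-05) for UTR2 (SE 0.29) and 2.05 (adjusted p = 4.04e-07) for SCW11 (SE 0.19). YGP1 and UTR2 were also higher in anaerobic early SP (1.57 and 2.38). These YGP1 calls ended without aerobic culture 1 in late SP (1.54, adjusted p = 0.0651) or in early SP (1.44, adjusted p = 0.0716), or without anaerobic culture 2 in early SP (1.46, adjusted p = 0.0695). CRH1, the partner of UTR2, read 657 and 546 in exponential phase, 632 and 342 at its end, 370.3 and 224 in early SP and 394 and 269 in late SP in anaerobic cultures, against 379.7 and 517 in exponential phase, 441 and 348 in late exponential phase, 348 and 292 at the diauxic shift, 417 and 352 post-diauxic, 341 and 409 in early SP and 133 and 194 in late SP in aerobic cultures. EXG1, the main exo-beta-1,3-glucanase, read 2397 and 2825 in exponential phase, 3089 and 2785 at its end, 987 and 1030.5 in early SP and 701 and 552 in late SP in anaerobic cultures, against 2006 and 2033 in exponential phase, 2057 and 2006 in late exponential phase, 625 and 636 at the diauxic shift, 1338 and 1157 post-diauxic, 433 and 448 in early SP and 122 and 434 in late SP in aerobic cultures. The aerobic late SP cultures differed over 3-fold in EXG1. Both were called higher in anaerobic late SP (1.02, adjusted p = 0.0136 for CRH1, and 1.44, adjusted p = 0.00456 for EXG1), but without aerobic culture 1 in late SP the values were 0.75 (adjusted p = 0.147) and 0.52 (adjusted p = 0.0266), and without anaerobic culture 1 CRH1 had 0.75 (adjusted p = 0.133). EXG1 was also called in early SP (1.19), a call that ended without any of the 4 arrays compared (1.16 to 1.23, adjusted p = 0.0581 to 0.0733).

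The glucanosyltransferases Gas1, Gas3 and Gas5 were called lower in anaerobic cultures in early SP. The log2 changes were -1.36 (adjusted p = 2.99e-05), -1.19 (adjusted p = 6.06e-05) and -1.54 (adjusted p = 6.72e-05), with SEs of 0.18, 0.17 and 0.23, and for late SP they were 0.34, -0.54 and -0.31, none of them called. Whether the early SP differences differ from those at other stages was not tested. GAS1, the main transferase of growing cells, read 1329 and 1432 in anaerobic early SP and 3551 and 3523 in aerobic early SP. Under quantile normalization the early SP call for GAS3 missed the fold threshold (-0.91). GAS2 and GAS4, which act in the spore wall, stayed between 7.2 and 37.1 on all arrays, about the floor, and were not called. GAS2 read 13.4 and 14.8 in exponential phase, 9.1 and 11.5 at its end, 10.4 and 18.9 in early SP and 16.2 and 9.6 in late SP in anaerobic cultures, against 12.3 and 11.6 in exponential phase, 16.2 and 16.8 in late exponential phase, 9.5 and 7.2 at the diauxic shift, 12.8 and 11.4 post-diauxic, 18.7 and 20.4 in early SP and 11.2 and 16.4 in late SP in aerobic cultures. KRE6, needed for beta-1,6-glucan, read 267 and 294 in exponential phase, 309 and 270.2 at its end, 113 and 49.8 in early SP and 96.6 and 82.4 in late SP in anaerobic cultures, against 199 and 246 in exponential phase, 267 and 109 in late exponential phase, 169.7 and 220.2 at the diauxic shift, 289.7 and 304 post-diauxic, 107 and 100.0 in early SP and 104 and 126 in late SP in aerobic cultures. It was lower in anaerobic early SP than at the aerobic diauxic shift (-1.37, adjusted p = 0.00761), a call that ended without anaerobic culture 2 (-0.78, adjusted p = 0.135) or aerobic culture 2 (-1.18, adjusted p = 0.0677). The glucanases SCW4, SCW10, BGL2 and EXG2 were not called between the regimes at any stage. SCW4, one of the closely related pair SCW4 and SCW10, read 5815 and 5321 in exponential phase, 6397 and 6504 at its end, 5139.6 and 5856 in early SP and 6113 and 6126 in late SP in anaerobic cultures, against 4704 and 4716 in exponential phase, 4188 and 4650.0 in late exponential phase, 2997 and 3164 at the diauxic shift, 3496 and 3545 post-diauxic, 4887 and 4998 in early SP and 4915 and 5530.3 in late SP in aerobic cultures. SCW10 read 1080.5 and 969 in exponential phase, 997 and 988 at its end, 332 and 337 in early SP and 289 and 271 in late SP in anaerobic cultures, against 1169.5 and 958 in exponential phase, 930.3 and 1192 in late exponential phase, 439 and 429.7 at the diauxic shift, 941 and 861 post-diauxic, 603 and 716 in early SP and 167 and 298 in late SP in aerobic cultures. The SCW4 signals changed by less than a fold of 2 over either batch, while those of SCW10 were lower once glucose had run out, except for a return in the post-diauxic phase. A second, weaker probe set of SCW10 differed in sign in late SP (-0.88, against 0.33 for the one used), and neither was called.

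Of the 3 chitin synthases, 1 differed between the regimes, being lower in anaerobic late SP, where 18.2% of all probe sets were lower. CHS1, the synthase that repairs the wall after cell separation, read 107 and 122 in exponential phase, 115 and 122 at its end, 98 and 96.5 in early SP and 71.5 and 76 in late SP in anaerobic cultures, against 115 and 102 in exponential phase, 116 and 117 in late exponential phase, 128 and 86.7 at the diauxic shift, 141 and 100.2 post-diauxic, 167 and 131 in early SP and 224 and 177 in late SP in aerobic cultures. It was highest in aerobic late SP, where the anaerobic level was lower (log2 change -1.43, SE 0.21, adjusted p = 5.52e-05). CHS2, which builds the primary septum, and CHS3, which makes most of the chitin, had 0.76 (adjusted p = 0.0129) and -0.13 (adjusted p = 0.804) there. CHS3 read 468 and 468 in exponential phase, 517 and 392 at its end, 167 and 163 in early SP and 114 and 86.6 in late SP in anaerobic cultures, against 301 and 429 in exponential phase, 395 and 329.8 in late exponential phase, 251 and 237 at the diauxic shift, 306 and 351 post-diauxic, 183 and 58 in early SP and 85.5 and 139 in late SP in aerobic cultures.

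The second question was how the wall genes changed along each batch. Between aerobic late exponential and exponential phase no member was called, nor was any of the 6067 probe sets (0% in either direction), with the arrays that resemble each other across the labels in this pair of groups. YGP1, for example, read 72.3 and 229 in late exponential and 221 and 72.2 in exponential phase. Without culture 1 at both points 3 members were called (2 higher and 1 lower), and without culture 2, 1 was (lower). Between the anaerobic end of exponential phase and exponential phase, 1 member, DAN2, was higher and none lower, against 0.412% and 0.0659% of all probe sets. Its log2 change of 1.42 (adjusted p = 0.0109) lost its call without anaerobic exponential culture 2 (1.30, adjusted p = 0.231) or without culture 1 or 2 at the end of exponential phase (1.47 and 1.37, adjusted p = 0.0714 and 0.0738).

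When glucose ran out, the wall genes moved in both regimes. In anaerobic early SP, 6 members were higher and 15 lower than at the end of exponential phase, or 15% and 37.5% of the 40, against 23.9% and 23.8% of all probe sets. At the aerobic diauxic shift, 7 were higher and 10 lower than in late exponential phase, or 17.5% and 25% of the 40, against 19.4% and 12.7% of all probe sets. Without culture 1 in exponential and late exponential phase 6 were higher and 11 lower at the shift, and without culture 2 there 8 and 8. SPI1 and YGP1 had the largest rises in both. For SPI1 the log2 change was 6.17 (SE 0.27, adjusted p = 1.25e-10) in anaerobic cultures and 5.61 (SE 0.27, adjusted p = 3.52e-10) in aerobic cultures. For YGP1 it was 5.48 (SE 0.46, adjusted p = 1.08e-07) in anaerobic and 4.79 (SE 0.46, adjusted p = 8.11e-07) in aerobic cultures. SED1 also rose in both, by 1.46 and 1.74 (SE 0.24), as did DAN2, by 1.69 and 1.25, the aerobic value being 0.96 without culture 1 in late exponential phase. TIP1, GSC2 and CWP1 were called higher at the aerobic shift alone, by 4.51, 2.62 and 1.47, where their anaerobic changes were 0.47, -0.03 and 0.84. CWP2 and PIR3 rose in anaerobic early SP (1.23 and 2.02), where their aerobic changes were -0.95 and 0.80. For CWP2 the anaerobic rise missed the fold threshold without culture 1 at the end of exponential phase (0.97). Whether these changes differ between the regimes was tested only for late SP over exponential phase.

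UTR2 had the largest fall at this step, with -3.93 (SE 0.29, adjusted p = 3.02e-08) in anaerobic cultures and -4.38 (SE 0.29, adjusted p = 1.36e-08) in aerobic cultures. The anaerobic and aerobic log2 changes were -1.88 and -1.59 for FKS1, -1.96 and -1.35 for GAS1, -1.57 and -1.28 for the glucanase-like SCW10, -1.54 and -1.69 for EXG1 and -1.59 and -1.88 for CIS3, all called lower. GAS3, ECM33 and TIR3 were also called lower in both, though the aerobic call for GAS3 ended without culture 1 in late exponential phase (-0.97), the one for ECM33 without culture 2 there (-0.86), and the one for TIR3 without culture 1 at the diauxic shift (-1.02, adjusted p = 0.113). The anaerobic call for TIR3 (-1.06) ended without any of the 4 arrays (-0.96 to -1.15) and under quantile normalization (-0.37, adjusted p = 0.474), and without any of the 4 ended that for TIR2 as well (-1.06, and -0.99 to -1.13). Called lower only in anaerobic cultures were DAN4 (-1.69), GAS5 (-1.39), EXG2 (-1.22), CHS3 (-1.45) and KRE6 (-1.95), and only at the aerobic shift CHS2 (-1.10, but -0.91 without culture 1 at the shift and -0.90 without culture 2 in late exponential phase).

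Only aerobic cultures pass through growth on ethanol. In the post-diauxic phase 2 members were higher and 2 lower than at the diauxic shift (7.42% and 3.54% of all probe sets). UTR2 returned in part (log2 change 2.79, SE 0.29, adjusted p = 1.7e-05), and SCW10 did so to a smaller extent (1.05, adjusted p = 0.00418, but 0.99 without post-diauxic culture 1). SPI1 and YGP1 fell, with log2 changes of -1.01 and -1.36. The call for SPI1 ended without culture 1 at the shift (-0.89, adjusted p = 0.137) or either post-diauxic culture (-1.01 and -1.02, adjusted p = 0.0798 and 0.0659), and that for YGP1 without any of the 4 arrays (-1.25 to -1.48, adjusted p = 0.104 to 0.225) and with culture number as a block (adjusted p = 0.0653). Aerobic early SP then had 3 members higher and 4 lower than the post-diauxic phase (6.81% and 11.5%). TIP1 rose again by 1.84 (adjusted p = 0.00196), with DAN2 (1.05, and 0.96 without early SP culture 2 or post-diauxic culture 1) and DAN4 (1.06). UTR2 fell once more (log2 change -4.41), and EXG1, CHS3 and KRE6 had -1.5, -1.67 and -1.52. The 2 early SP cultures differed in CHS3, and without culture 2 its change was -0.84 (adjusted p = 0.0507).

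**Figure D4:**
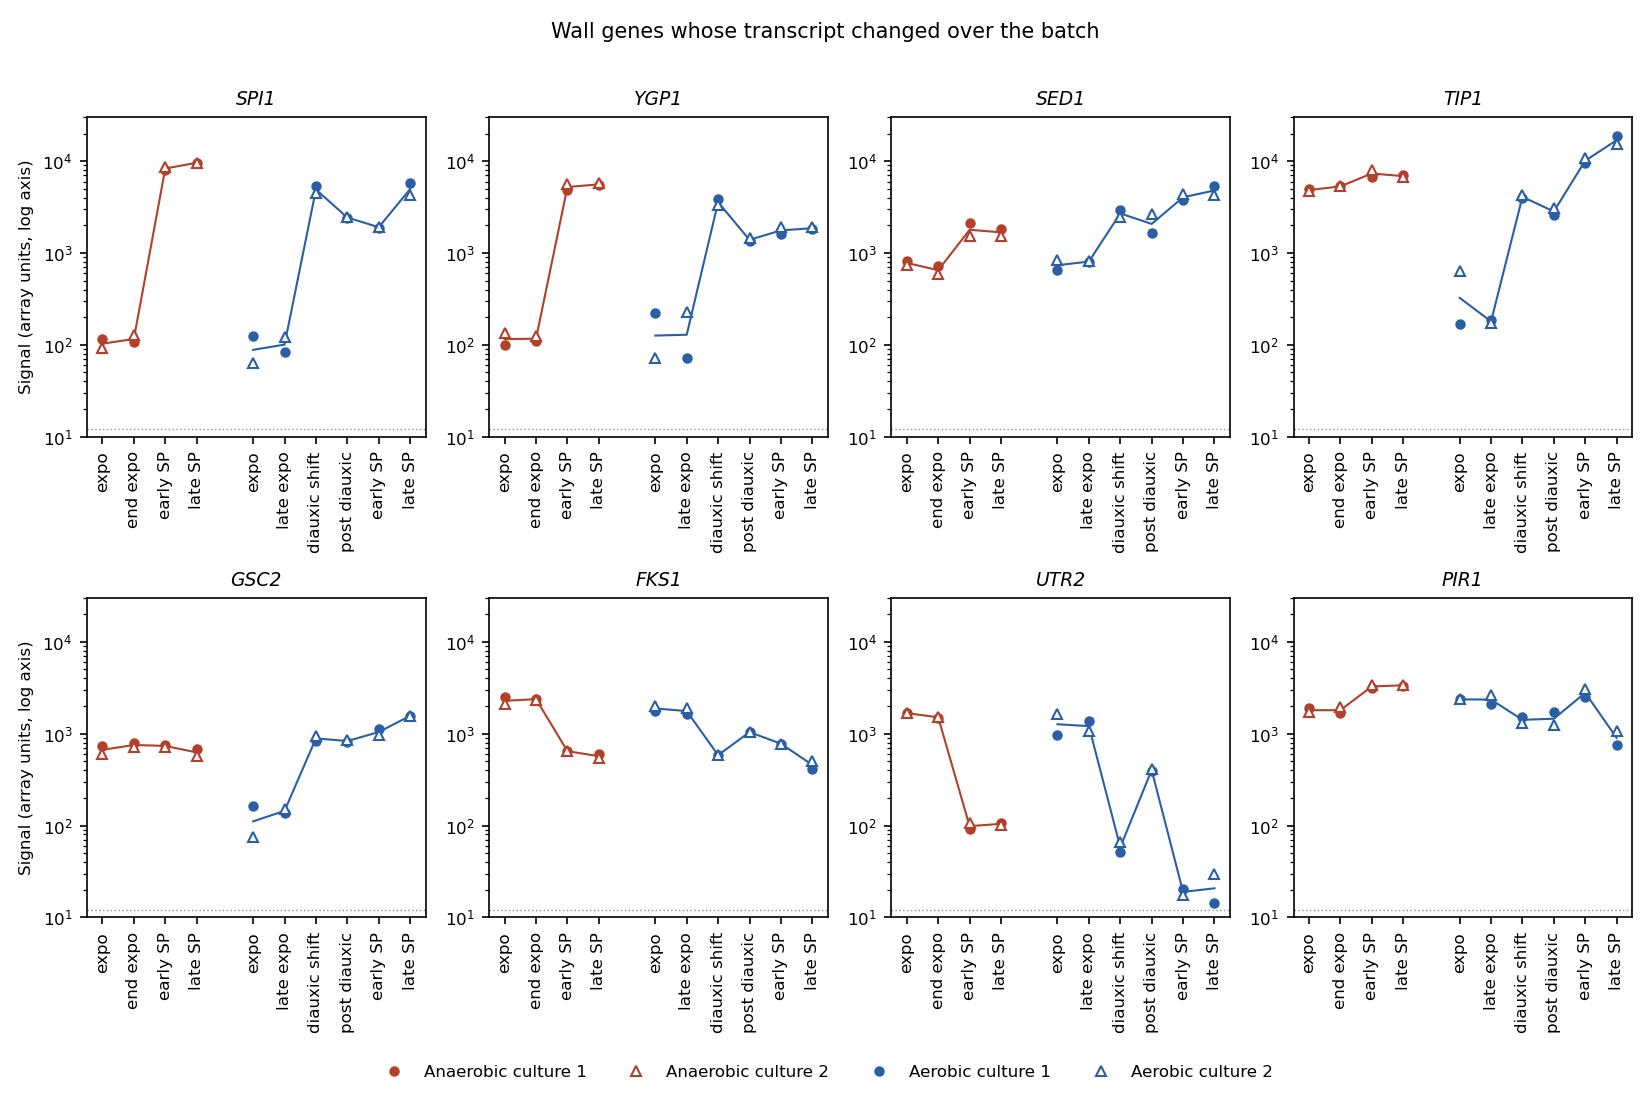
Signal of 8 wall genes on each array (log axis, array units) through the anaerobic batch (left of each panel) and the aerobic batch (right). Filled circles are culture 1, open triangles culture 2, lines join their geometric means, and the dotted line marks the floor of 12. SPI1, YGP1 and SED1 climb after growth on glucose under both regimes, TIP1 and GSC2 do so only in aerobic cultures, FKS1 and UTR2 fall under both, and UTR2 returns in part in the post-diauxic phase.

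Over the whole batch, late SP was set against exponential phase within each regime. In anaerobic cultures 4 members were higher and 14 lower in late SP (10% and 35% of the 40, against 23.1% and 28.8% of all probe sets), and in aerobic cultures 10 were higher and 17 lower (25% and 42.5%, against 25.9% and 25.3%). Without aerobic culture 1 in exponential and late exponential phase the aerobic counts were 9 and 19, and without culture 2 there 10 and 17. Lower in both were 11 members, namely ECM33, CIS3, UTR2, GAS1, GAS3, GAS5, FKS1, SCW10, EXG1, EXG2 and CHS3. Higher in both were 4 (DAN2, SED1, SPI1 and YGP1). How many of all probe sets were called in both regimes, or in 1 alone, was not counted. These overlaps can therefore not be read as particular to wall genes. UTR2 had the largest fall in each, with log2 changes of -4.0 in anaerobic and -5.93 in aerobic cultures, and SPI1 the largest rise (6.54 and 5.81). The aerobic fall of UTR2 ended near the floor, so that its size, and that of its interaction, is uncertain. GAS1 had -2.11 and -2.76, FKS1 -2.00 and -2.04 and CHS3 -2.24 and -1.72. A further 6 members (CWP2, PIR1, CRH1, SCW11, BGL2 and CHS2) were called lower in aerobic cultures alone, and KRE6 in anaerobic cultures alone (-1.65, adjusted p = 0.000869). Called higher in aerobic cultures alone were TIR4, TIP1, PIR3 and GSC2. DAN4 and TIR2 were called in opposite directions, lower over time in anaerobic cultures (-2.07 and -1.31) and higher in aerobic cultures (1.89 and 1.07). The TIR2 calls ended without aerobic late SP culture 2 (0.53, adjusted p = 0.351), aerobic exponential culture 1 (0.85, adjusted p = 0.155), anaerobic exponential culture 1 (-1.13, adjusted p = 0.0721) or anaerobic late SP culture 2 (-1.15, adjusted p = 0.0695). The calls for CWP2, EXG2, PIR3 and SED1 also rested on single arrays: in aerobic cultures CWP2 had -0.82 without late SP culture 1, and EXG2 had -0.89 and PIR3 0.77 without late SP culture 2, while in anaerobic cultures SED1 had 0.98 without late SP culture 1 and 0.99 under quantile normalization. The median log2 change of all probe sets in aerobic cultures was 0.06 as deposited and -0.20 after quantile normalization.

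The change over the batch differed between the regimes for 17 of the 40 members, by the interaction of regime and stage. The anaerobic change was the higher one for 10 and the lower one for 7, against 14.2% and 19.1% of all probe sets. Without aerobic culture 1 in exponential and late exponential phase these counts were 7 and 7, and without culture 2 there 12 and 7. The largest were TIP1 (-5.20), DAN4 (-3.96) and GSC2 (-3.91) in the lower direction, and PIR1 (2.30, adjusted p = 2.81e-05), UTR2 (1.93, adjusted p = 0.00174) and SCW11 (1.89, adjusted p = 5.57e-05) in the higher direction. BGL2, an endo-beta-1,3-glucanase, differed here without a call between the regimes at any stage. In late SP it read 2291 and 2194 in anaerobic and 1131 and 1466 in aerobic cultures, and in exponential phase 2439 and 2494 in anaerobic and 3459 and 3377 in aerobic cultures (log2 change 1.27, SE 0.21, adjusted p = 0.000252). FKS1 and GAS3, with 0.04 and -0.04 (SE 0.22 and 0.25), were among the 23 members not called here. So was ECM33 (0.63), but its second probe set had 1.36 (adjusted p = 0.00624).

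The genes of protein mannosylation, which build the mannan layer, were lower late in both batches or not called. Of 31 genes of protein mannosylation tested, 16 were lower in anaerobic and 15 in aerobic late SP than in exponential phase, none was higher in either (of all probe sets 28.8% and 25.3% were lower), and the list's median log2 change was -1.03 and -0.89, where that of all probe sets was -0.10 and 0.06. MNN11 (-2.62), VRG4 (-2.40) and PMT4 (-2.26) changed most in anaerobic cultures, and PMT4 (-2.98), VRG4 (-2.95) and PMT2 (-2.93) in aerobic cultures. VRG4 is the carrier that brings GDP-mannose into the Golgi, MNN11 belongs to a Golgi mannosyltransferase complex, and the PMT genes encode the transferases that start O-mannosylation. Between the regimes, 3 of the 31 were higher in anaerobic exponential phase, PMT5 (2.49), PMT3 (1.78) and KTR1 (1.16), where 2.88% of all probe sets were higher, and in late SP 6 were higher and 3 lower (12.8% and 18.2% of all probe sets), with MNN5 (-2.01), PSA1 (1.67) and PMT5 (1.53) changed most.

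Other wall lists are given by their counts in late SP between regimes, of anaerobic over aerobic, to be read against the 12.8% of all probe sets that were higher and the 18.2% that were lower. Of 23 genes of the cell wall integrity pathway, the kinase cascade that answers wall stress, none was called in exponential phase. At that stage only 2.88% of all probe sets were higher and 5.08% lower, so few calls would fall among 23 genes. In late SP 1 of the 23 was higher (ROM1, 2.45, an activator of the GTPase Rho1) and 5 were lower, RLM1 (-2.16) and MKK1 (-1.80) most. RLM1, the transcription factor at the end of the cascade, read 131.2 and 131.1 in anaerobic and 686 and 500.5 in aerobic late SP. Of 12 genes of chitin supply and turnover, 2 were higher and 2 lower, led by CHS7 (-1.73), the export factor of Chs3, the deacetylase gene CDA1 (1.48) and the chitinase gene CTS1 (1.31). Of 10 genes of beta-1,6-glucan assembly, 1 was lower (KNH1, -2.17), and ROT1 (-0.80) and KEG1 (0.59) were not called. Of 11 genes of daughter cell separation, 5 were higher and 1 lower, led by DSE2 (2.54), EGT2 (1.89) and ASH1 (1.47). Of 28 further wall proteins, 3 were higher and 9 lower, led by FIT2 (-4.70) and FIT3 (-2.64), mannoproteins that hold iron-siderophores, and by the flocculin gene FLO11 (2.68). FLO11 read 2751 and 2217 in anaerobic and 413 and 359 in aerobic late SP. For all probe sets the median of this comparison was -0.08, or 0.12 after quantile normalization.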

How the data were processed

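RNA from 20 samples, 2 cultures at each of 10 stages, had been hybridised by the authors to 1-colour Affymetrix YG-S98 arrays. The deposited values are linear signal intensities, 1 per probe set and array, brought by the authors to the same average signal on all arrays. The software behind them is not given in the sources used here. Probe sets were named from the platform annotation, which can be old. Where a gene had several probe sets, the one with the highest mean signal was used, and the others were compared with it.

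Signals were raised to a floor of 12 and taken to log2. Of 6647 features annotated to coding genes, 580 that stayed below 20 on all arrays were left out, and the other 6067 entered a fit of 10 group means to the 20 arrays (limma 3.58.1, R 4.3.3, 10 residual degrees of freedom). P-values were adjusted by Benjamini-Hochberg over all 6067, with thresholds of 0.05 for the adjusted p and 2 for the fold. All tests were two-sided. The fit was tested on simulated data with known changes. Array number limits the precision. Each probe set has a single spread, pooled over the 10 groups and drawn toward that of all probe sets (4.73 prior degrees of freedom). A p-value therefore also reflects the spread at stages outside its comparison. The fit treats stages of the same culture as independent.

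The genes and the further lists were chosen with earlier results of these data known. Given by array are members called in late SP, all DAN/TIR members, the 4 largest changes of a comparison discussed and an uncalled member of a role group. Of each further list, the 3 largest changes are named. Sequences were not used here.

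Same-numbered samples of a regime are stages of the same culture. Their deviations from group means correlated with a median of 0.094 (-0.003 to 0.179) over 6 anaerobic pairs of stages and of 0.121 (-0.555 to 0.373) over 15 aerobic pairs. Alternatives covered the floor, the filter, the scaling, the variance model, the arrays in the fit, the features tested, the fold threshold, culture number as a fixed or random block, and leaving out each array. Those without an aerobic culture, and the block with crossed numbers, were chosen after seeing the data. Figures were drawn with matplotlib 3.10.9 in Python 3.11.15.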

Additional observations from a re-analysis of the deposited data

Results flagged for a closer look

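For 17 members, the change between exponential phase and late SP differed between anaerobic and aerobic cultures by the test of the interaction (limma, 2 cultures per group). Values are the anaerobic log2 change minus the aerobic one. They were negative for TIP1 (-5.20, adjusted p = 5.19e-06), DAN4 (-3.96, adjusted p = 4.08e-07), GSC2 (-3.91, adjusted p = 1.54e-06), TIR4 (-2.48, adjusted p = 0.00367), TIR2 (-2.37, adjusted p = 0.00485), SED1 (-1.60, adjusted p = 0.00179) and CHS1 (-1.51, adjusted p = 0.0011). They were positive for PIR1 (2.30, adjusted p = 2.81e-05), UTR2 (1.93, adjusted p = 0.00174), SCW11 (1.89, adjusted p = 5.57e-05), YGP1 (1.72, adjusted p = 0.0459), DAN2 (1.62, adjusted p = 0.00172), CIS3 (1.37, adjusted p = 0.0132), BGL2 (1.27, adjusted p = 0.000252), PST1 (1.15, adjusted p = 0.0103), HSP150 (1.15, adjusted p = 0.0072) and CHS2 (1.00, adjusted p = 0.0244).

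Of these, 4 rested on single arrays. Without aerobic late SP culture 1 the value was 0.85 for CIS3 (adjusted p = 0.0657), 0.89 for PST1 (adjusted p = 0.0519) and 0.73 for CHS2 (adjusted p = 0.11). CIS3 also lost its call without anaerobic exponential or late SP culture 1 (1.22 and 1.24, adjusted p = 0.0529 and 0.0507), PST1 without aerobic exponential culture 1 (0.89), and CHS2 without aerobic exponential culture 1 (0.79), anaerobic exponential culture 2 (0.89) or anaerobic late SP culture 1 (0.88). YGP1 lost it without any of the arrays but aerobic exponential culture 2, with 0.91 (adjusted p = 0.227) without aerobic exponential culture 1, and with culture number as a block (adjusted p = 0.0627). HSP150 had 0.98 under quantile normalization.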

How the results depend on the processing

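Of the 182 member results called, none changed direction under any alternative run. Over the alternatives fixed at the outset, arrays left out excepted, 2103 of 2184 values kept their call and 81 lost it. With an array left out 701 of 796 kept it and 95 lost it, and under the alternatives chosen after seeing the data 597 of 634 did. The cause of the changes was not tested. Counts of members called moved by over 1.5 times in these cases. With quantile normalization, 7 members were called between the post-diauxic phase and the diauxic shift, in place of 4. With only the arrays compared in the fit, which leaves few residual degrees of freedom, 3 in place of 12 were called in exponential phase between regimes, and 0 in place of 1 at the anaerobic end of exponential phase. Without the fold threshold, 21 in place of 11 were called for anaerobic early SP against the aerobic diauxic shift, 10 in place of 4 for the post-diauxic phase and 16 in place of 7 for aerobic early SP. Without aerobic culture 1, aerobic late exponential against exponential phase had 3 calls (5 where it was left out at all 6 points), and without culture 2 it had 1 (1 at all 6 points), in place of 0. Without aerobic culture 2 at all 6 points, the post-diauxic comparison had 8.

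Leaving out each array in turn gave 8 to 12 calls between regimes in exponential phase, 10 to 12 at its end, 13 to 17 in early SP, 14 to 21 in late SP and 10 to 11 against the diauxic shift. Over time it gave 0 to 1 for aerobic late exponential phase, 15 to 19 for the diauxic shift, 1 to 4 for the post-diauxic phase, 5 to 10 for aerobic early SP, 26 to 28 for aerobic late SP, 0 to 1, 18 to 20 and 17 to 20 for the anaerobic stages, and 13 to 19 for the interaction. With culture number as a replicate block, 3 members in place of 4 were called in the post-diauxic phase and 16 in place of 17 for the interaction, YGP1 being lost in each, and no other count moved. Culture as a random block, or numbers crossed at aerobic late exponential phase, moved no count. Signals at or below the floor, as of GAS2, GAS4, DAN1 in aerobic culture 1 and ROX1 in anaerobic exponential phase, give bounds rather than levels. Those of UTR2 in aerobic SP lay above the floor but near it, and the size of changes that involve them is uncertain.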
